A study of Mus musculus with 16 samples.

Results

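The genes described here are 34 that build the ribosome in the nucleolus, followed in the stem and progenitor cells of mouse bone marrow under chronic IL1β. They were matched by symbol among the 27998 genes of the count tables, and all 34 were listed in all 8 libraries. The genes were chosen from results of these same data, since *Rrs1* had been seen to fall with IL1β in progenitor cells, so every comparison of IL1β with vehicle is given below as a description. There, called means that a gene passed the threshold of a fit across all genes, which sorts the genes and is no independent evidence that they respond, and no p-value of a single gene is printed. Differences between genotypes did not enter the choice and were tested.

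Lineage-depleted bone marrow came from 16 C57BL/6 mice, 4 in each of 4 groups, aged 6 to 12 weeks according to the sample labels. WT mice were *Tet2* fl/fl without Cre and *Tet2*-KO mice were Vav-Cre *Tet2*-/-, with Cre driven by a promoter active in blood cells. The Cre transgene and the loss of *Tet2* therefore cannot be told apart. Mice of each genotype were injected intraperitoneally for 5 weeks with vehicle or with IL1β, at a daily dose of 500 ng. Single cells were profiled with 10x 3′ chemistry, in which unique molecular identifiers (UMIs) count captured transcripts, and each library pooled 2 mice of 1 group that a hashtag antibody on their cells told apart.

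Of 121405 barcodes, 94917 passed the limits on detected genes and mitochondrial UMIs, and 57896 of these could be assigned to 1 mouse. Hashtags were negative in 34.85% of the cells that passed, and 3938 cells carried both hashtags and were left out as doublets. Between libraries the median ranged from 4436 to 7363 UMIs per cell, and 1061 of 93850 distinct barcode sequences occurred in more than 1 library. Assigned cells per mouse were fewest in WT vehicle mouse 2, with 698. Each group had 2 pools, each of mice of that group only, so pools are nested within groups. Captured 3′ ends of *Tet2* lie where they cannot report on the deleted exons, and that gene was left out as a genotype check.

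Ribosomes are assembled in the nucleolus, where RNA polymerase I copies the ribosomal DNA into a long precursor. Box C/D and box H/ACA ribonucleoproteins, guided by small nucleolar RNAs, methylate and pseudouridylate that precursor, the small subunit processome folds and cleaves its 5′ part, and a succession of assembly factors matures the large subunit. The transcription factor MYC drives many of these genes. In blood formation, stem cells keep protein synthesis low, and it increases in proliferating progenitors and in erythroid cells.

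The 34 genes were sorted into 6 groups by role. *Myc*, *Polr1a*, *Polr1b* and *Mybbp1a* serve transcription by RNA polymerase I and its regulation. *Fbl*, the methyltransferase, *Nop56*, *Nop58* and *Rrp9* belong to box C/D particles, and *Dkc1*, the pseudouridine synthase, *Nhp2*, *Nop10* and *Gar1* form the protein core of box H/ACA particles. *Nop14*, *Utp20*, *Wdr43* and *Rrp12* act in the small subunit pathway. The 12 large subunit factors are *Pes1*, *Bop1*, *Wdr12*, *Rrs1*, *Nop2*, *Nop16*, *Ebna1bp2*, *Noc2l*, *Rrp1b*, *Rrp15*, *Ddx18* and *Gnl2*. *Ncl*, *Npm1*, *Npm3*, *Nolc1*, *Gnl3* and *Ddx21* are nucleolar chaperones, scaffolds, a GTPase and a helicase.

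Start sites of these genes were examined for the E-box CACGTG, the sequence that MYC and its partner MAX bind, in windows of 300 bases from 250 before to 50 after the start. RefSeq sequences on GRCm38.p6 were at hand for 27 of the 34 genes, 3 of which had several entries, and none was used here for *Rrs1*, *Fbl*, *Npm1*, *Rrp12*, *Bop1*, *Gnl2* and *Myc*. The E-box, which reads the same on both strands, occurred in 5 of these 27 genes (18.5%) and in 2187 of all 27025 genes with a window (8.1%). A match is a description of the sequence and not evidence of binding. The 5 windows with a match are printed 5′ to 3′ on the gene's strand, with the E-box in capitals, and *Nhp2* is added because it was called lower with IL1β in 5 gates of *Tet2*-KO mice, more than any other of the 34, although its window holds no match. The windows lie at chr6:125131633-125131932 (+) for *Nop2*, chr11:3963725-3964024 (+) for *Pes1*, chr17:71615965-71616264 (+) for *Wdr43*, chr11:72441077-72441376 (+) for *Mybbp1a*, chr10:88826765-88827064 (-) for *Utp20* and chr11:51619523-51619822 (+) for *Nhp2*.
Nop2: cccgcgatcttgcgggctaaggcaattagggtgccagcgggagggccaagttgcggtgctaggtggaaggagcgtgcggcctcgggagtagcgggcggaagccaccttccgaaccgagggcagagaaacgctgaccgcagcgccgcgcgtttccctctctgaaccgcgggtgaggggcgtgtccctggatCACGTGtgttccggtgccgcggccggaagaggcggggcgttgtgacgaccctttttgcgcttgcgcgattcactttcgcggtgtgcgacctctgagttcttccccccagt
Pes1: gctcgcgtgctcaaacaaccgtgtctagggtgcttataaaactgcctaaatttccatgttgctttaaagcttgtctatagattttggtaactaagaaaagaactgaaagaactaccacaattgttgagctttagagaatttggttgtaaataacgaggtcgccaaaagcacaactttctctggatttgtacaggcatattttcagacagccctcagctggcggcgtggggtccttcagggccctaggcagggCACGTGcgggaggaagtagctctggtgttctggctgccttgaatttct
Wdr43: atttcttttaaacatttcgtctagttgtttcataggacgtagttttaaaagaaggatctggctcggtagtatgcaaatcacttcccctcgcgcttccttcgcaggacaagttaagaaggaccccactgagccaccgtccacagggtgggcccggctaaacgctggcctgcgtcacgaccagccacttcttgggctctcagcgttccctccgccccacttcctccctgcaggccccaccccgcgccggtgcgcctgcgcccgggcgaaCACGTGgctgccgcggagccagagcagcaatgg
Mybbp1a: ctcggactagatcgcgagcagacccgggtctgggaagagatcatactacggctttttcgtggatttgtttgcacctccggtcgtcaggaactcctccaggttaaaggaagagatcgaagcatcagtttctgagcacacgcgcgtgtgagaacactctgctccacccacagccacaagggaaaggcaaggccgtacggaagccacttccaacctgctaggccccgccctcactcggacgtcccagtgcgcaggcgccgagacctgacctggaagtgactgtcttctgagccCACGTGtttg
Utp20: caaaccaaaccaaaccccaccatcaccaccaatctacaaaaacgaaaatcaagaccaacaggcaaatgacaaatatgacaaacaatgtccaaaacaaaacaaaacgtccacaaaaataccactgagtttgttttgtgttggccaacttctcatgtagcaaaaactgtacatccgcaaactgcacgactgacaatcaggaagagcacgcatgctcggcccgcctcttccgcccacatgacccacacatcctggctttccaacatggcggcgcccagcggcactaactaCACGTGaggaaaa
Nhp2: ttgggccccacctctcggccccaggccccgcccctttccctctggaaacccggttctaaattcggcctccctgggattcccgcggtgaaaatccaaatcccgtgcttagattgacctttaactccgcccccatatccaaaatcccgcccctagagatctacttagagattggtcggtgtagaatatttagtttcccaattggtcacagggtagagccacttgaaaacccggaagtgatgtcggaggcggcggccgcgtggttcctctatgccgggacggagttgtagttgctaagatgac

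Counted from the gene start, the first base of the E-box stands at -60 in *Nop2* and at 3, 18, 41 and 38 in *Pes1*, *Wdr43*, *Mybbp1a* and *Utp20*. Among the 5, *Mybbp1a* was called lower with IL1β in several cell types and *Pes1* in none, as given below.

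Cells were gated by UMIs of marker genes that are not among the 34, in a fixed order of 18 gates, and 46705 of the assigned cells entered a gate. Tests were made in 6 gates. HSC-like cells (1209 cells, marked by *Hlf*, *Mecom*, *Procr* and *Mllt3*), multipotent progenitors (MPP, 816 cells, *Flt3* and *Cd34*), immature myeloid progenitors (IMP, 929 cells, *Mpo* and *Cd34* without *Elane*) and granulocyte progenitors (18037 cells, *Elane* and *Ms4a3*) follow the myeloid path. Megakaryocyte-erythroid progenitors (MEP, 653 cells, *Gata1* and *Gata2*) and erythroid colony-forming cells (CFU-E, 4725 cells, *Klf1* and *Car1*) follow the erythroid one. Levels are given in CPM, the UMIs of a gene scaled to a common library total. Genes kept out of the gates fitted the names in part. *Meis1* reached 408 and *Gcnt2* 240 CPM in HSC-like cells of WT mice with vehicle, whereas *Hoxb5* and *Fgd5* were under the filter on low counts, and granulocyte progenitors carried *Prtn3* at 7246 and *Ctsg* at 3554 CPM.

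The depth behind each value differed widely between gates. UMIs summed over the cells of a mouse, in the mice used for a gate, ranged from 1181366 to 20599872 in granulocyte progenitors and from 691283 to 6480123 in CFU-E, but only from 31853 to 549187 in HSC-like cells, 107349 to 545223 in MPP, 65288 to 565951 in IMP and 106424 to 485530 in MEP. Mice with fewer than 10 cells of a gate had been left out of it, which took WT IL1β mouse 4 from HSC-like cells, WT vehicle mouse 2 from MPP, and WT vehicle mouse 2, KO vehicle mouse 2 and KO IL1β mouse 1 from MEP. After the filter on low counts, 32 of the 34 genes could be tested in HSC-like cells and MPP, 31 in IMP and all 34 in granulocyte progenitors, MEP and CFU-E, or 197 pairs of a gene and a gate.

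In WT mice with vehicle, the ribosome biogenesis genes were at their highest level in early erythroid cells. As a score, the mean over the 34 genes of log2(CPM + 1) per mouse, CFU-E stood at 7.40 (range 7.33 to 7.48 over 4 mice), MEP at 7.13, IMP at 7.02, MPP at 6.80, granulocyte progenitors at 6.79 and HSC-like cells at 6.54. Mice of MEP and IMP overlapped, as did those of MPP and granulocyte progenitors. Neutrophils, at 5.90, and monocytes, at 5.37, were lowest, whereas erythroblasts stood at 6.63 and their mice overlapped those of HSC-like cells. The 34 genes together made up 1.30% of all UMIs in CFU-E, 0.840% in granulocyte progenitors and 0.694% in HSC-like cells.

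With IL1β the mean score was lower in HSC-like cells, MPP, IMP and granulocyte progenitors of both genotypes, and in CFU-E it moved little. The difference of IL1β minus vehicle was -0.24 in WT and -0.47 in *Tet2*-KO HSC-like cells, -0.26 and -0.33 in MPP, -0.36 and -0.70 in IMP, and -0.24 and -0.45 in granulocyte progenitors, all on the log2 scale. In MEP it was 0.08 in WT and -0.14 in *Tet2*-KO, and in CFU-E 0.03 in both. The sign in *Tet2*-KO MEP turned with stricter gates, as given in the last section. Leaving out 1 mouse moved the MPP difference to -0.19 in *Tet2*-KO without KO IL1β mouse 1, whose score was 6.01 against 6.47 to 6.66 in the others, and to -0.17 in WT without WT IL1β mouse 2. In *Tet2*-KO MEP it went to -0.09 without KO IL1β mouse 2 and -0.22 without KO IL1β mouse 3. Over all such fits it ranged from -0.35 to -0.19 in WT HSC-like cells, from -0.52 to -0.37 in *Tet2*-KO HSC-like cells, from -0.39 to -0.30 and from -0.80 to -0.63 in IMP, from -0.33 to -0.20 and from -0.53 to -0.42 in granulocyte progenitors, and stayed between 0.003 and 0.058 in CFU-E of both genotypes and between 0.01 and 0.18 in WT MEP. The mice of WT overlapped between IL1β and vehicle in HSC-like cells and granulocyte progenitors, and in MEP and CFU-E both genotypes overlapped. Over TMM-adjusted totals, which allow for a change in the makeup of the RNA, the difference in WT granulocyte progenitors was -0.43 in place of -0.24, and in CFU-E it was -0.11 in WT and -0.09 in *Tet2*-KO. Across all 18 gates the difference was negative in 9 in WT and in 17 in *Tet2*-KO. These gates hold cells of the same mice and are not separate observations. Against TMM factors, plain totals moved the median of all genes up with IL1β, by 0.07 to 0.18 in the 6 tested gates. A sign near 0 can thus rest on the scaling, as in CFU-E. In WT the difference was 0.04 in erythroblasts, 0.05 in B and plasma cells and 0.08 in monocytes. The score weighs every gene alike. Where the log2 was taken of the summed UMIs of the 34 genes instead, the MPP differences shrank to -0.02 in WT and -0.12 in *Tet2*-KO. Those in IMP shrank to -0.20 and -0.43, and that in *Tet2*-KO HSC-like cells shrank too. A gene without UMIs in a mouse enters the score as 0. In HSC-like cells these were *Nop2*, *Rrp9* and *Polr1b* in KO IL1β mouse 1 and *Nop2*, *Bop1*, *Rrp12* and *Polr1a* in WT vehicle mouse 2. *Nop2* in KO vehicle mouse 2 and *Rrp9* in WT IL1β mouse 2 were others. What part this has in the differences was not tested.

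**Figure D1:**
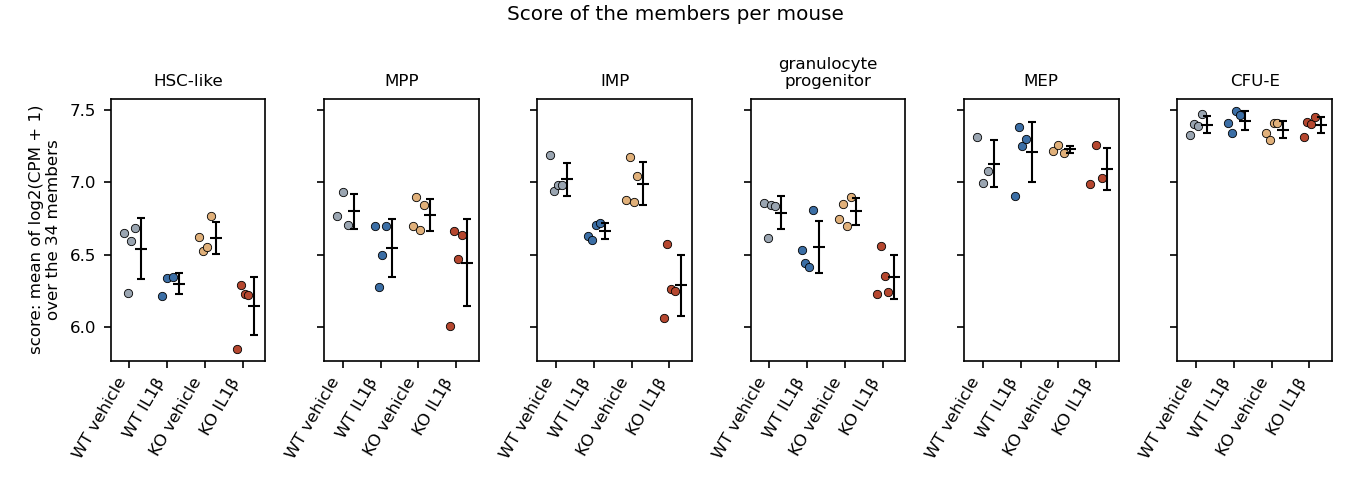
Score of the 34 genes (mean log2(CPM + 1)) for each mouse, by gate and group, with the mean and SD over mice. Mice with IL1β lie under those with vehicle in IMP of both genotypes, whereas the groups overlap in CFU-E.

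Gene by gene, the fit of edgeR across all genes called 39 of the 197 pairs lower with IL1β in WT and none higher, at an adjusted p under 0.05. In *Tet2*-KO it called 68 lower and 4 higher. With the pool as the replicate in place of the mouse, 30 pairs were called in either direction in WT and 63 in *Tet2*-KO. Granulocyte progenitors held 22 and 28 of the lower calls, and the share of all genes called lower ran from 1.89% in HSC-like cells to 16.8% in granulocyte progenitors in WT, and from 2.6% in MEP to 20.8% in granulocyte progenitors in *Tet2*-KO, so the counts are read gate by gate below. At an unadjusted p under 0.05 there were 72 pairs in WT and 105 in *Tet2*-KO in either direction. In MPP these were 7 and 12 of 32 genes, against 1020 and 1358 of all 5679. In IMP they were 12 and 20 of 31, against 1038 and 1632 of all 4507. Counting each gene once, 22 were lower in at least 1 gate in WT and 28 in *Tet2*-KO, and *Npm1*, *Pes1* and *Polr1a* were called in no gate of either genotype. The 2 comparisons use different mice throughout, with a shared estimate of the spread.

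**Figure D2:**
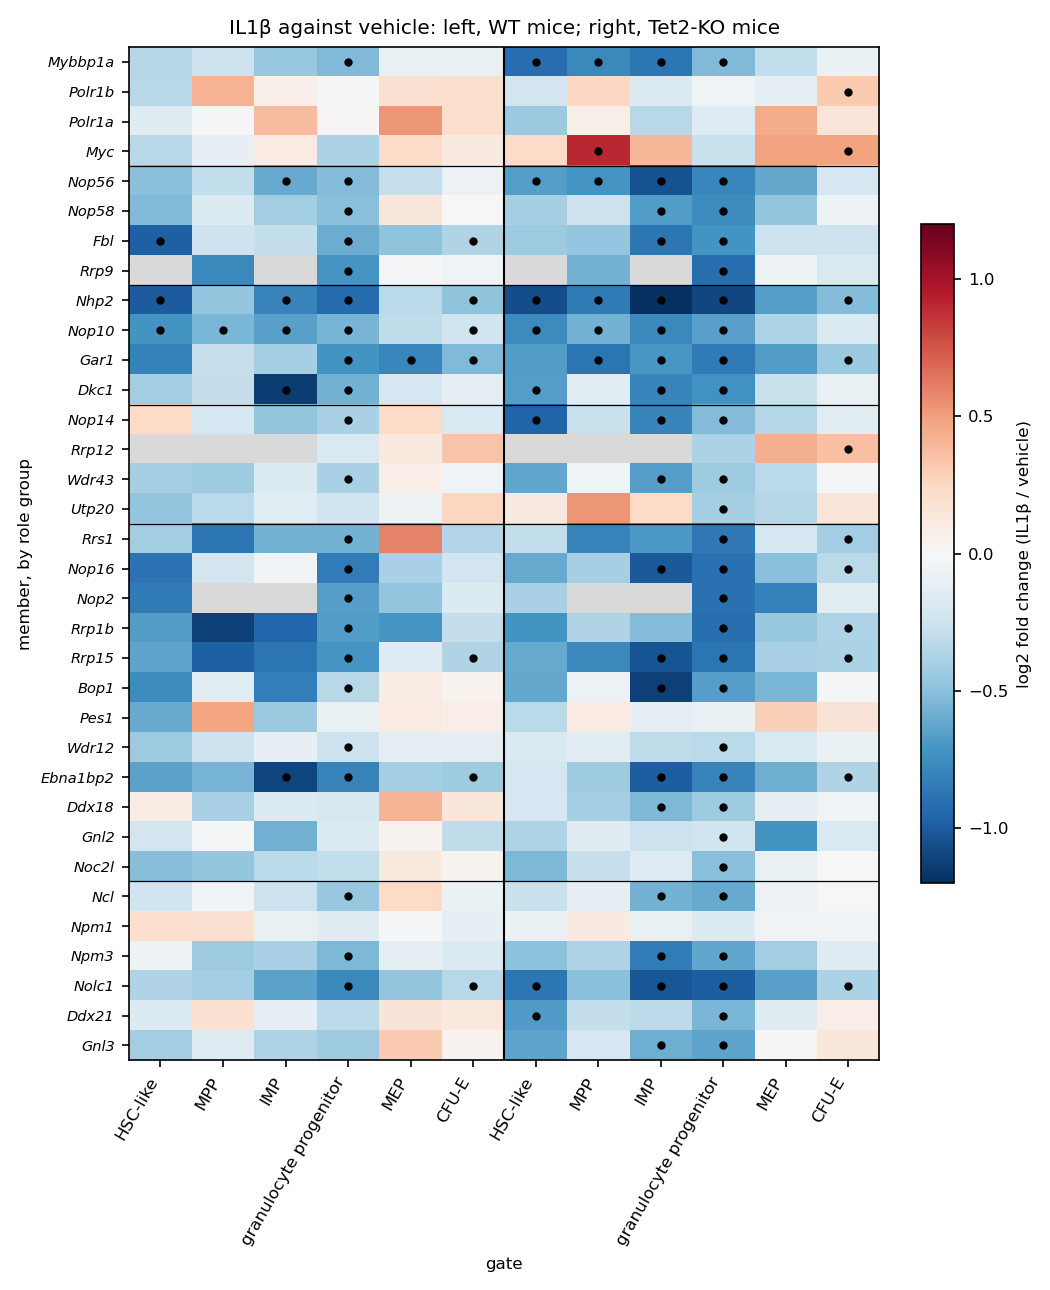
Log2 fold change of IL1β against vehicle for each of the 34 genes, ordered by role, in the 6 gates of WT and *Tet2*-KO mice. Dots mark calls by edgeR at an adjusted p under 0.05, grey marks genes not tested, and lines part the 6 role groups. Calls crowd in granulocyte progenitors and, in *Tet2*-KO, in IMP.

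Granulocyte progenitors had the most calls. In WT, 22 of 34 genes were called lower with IL1β, where 16.8% of all 11074 genes tested were called lower, and in *Tet2*-KO 28 of 34, where 20.8% of all genes were. The median log2 fold change of the 34 genes was -0.48 in WT and -0.63 in *Tet2*-KO, against 0.04 and 0.03 over all genes tested. All 4 genes of each snoRNA particle were called in both genotypes, with medians of -0.56 and -0.77 for box C/D and -0.64 and -0.79 for box H/ACA. Of the 12 large subunit factors, 8 were called in WT and 11 in *Tet2*-KO, of the small subunit factors 2 and 3 of 4, and of the chaperone and helicase group 3 and 5 of 6. In the polymerase I group, *Mybbp1a* was the 1 gene called in either genotype.

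*Nhp2* (ENSMUSG00000001056, chr11:51619735-51623714 on the + strand), an RNA-binding core protein of box H/ACA particles and of telomerase, had the largest fold change of the 34 in this gate. Its level was 399, 314, 324 and 332 CPM in WT mice with vehicle and 213, 192, 135 and 184 with IL1β. In *Tet2*-KO mice it was 323, 342, 354 and 395 with vehicle and 129, 163, 196 and 176 with IL1β. Every mouse with IL1β was under every mouse with vehicle. The log2 fold change was -0.92 ± 0.13 (SE) in WT and -1.09 ± 0.13 in *Tet2*-KO. *Nop10*, the smallest core protein of the same particle, went from 844, 777, 809 and 780 to 592, 546, 445 and 600 CPM in WT, and from 715, 802, 805 and 822 to 425, 512, 544 and 526 in *Tet2*-KO. These groups did not overlap either.

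Large subunit factors followed closely. *Nop16* stood at 102, 80.2, 74.3 and 76.6 CPM in WT with vehicle and 52.1, 43.0, 37.1 and 54.7 with IL1β, and at 72.5, 76.0, 84.3 and 92.5 against 35.6, 46.5, 46.7 and 45.8 in *Tet2*-KO, for log2 fold changes of -0.84 ± 0.13 and -0.89 ± 0.12. *Ebna1bp2* (chr4:118620799-118627776, +), needed for processing the large subunit RNA, was at 181, 147, 154 and 153 CPM in WT with vehicle and 98.8, 97.8, 77.2 and 91.9 with IL1β. In *Tet2*-KO it was at 140, 145, 159 and 186 with vehicle and 75.1, 86.4, 103 and 95.1 with IL1β, and the fold change was -0.80 in both genotypes. Neither gene had overlapping groups.

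*Rrs1* (ENSMUSG00000061024, chr1:9545408-9547455, +), which brings the 5S ribonucleoprotein into the large subunit, is the gene whose fall had prompted the choice. Its level in granulocyte progenitors was 69.1, 56.8, 59.1 and 62.8 CPM in WT with vehicle and 39.3, 39.4, 39.4 and 53.5 with IL1β. In *Tet2*-KO it was 55.7, 61.0, 79.6 and 77.3 with vehicle and 35.3, 41.5, 40.2 and 33.7 with IL1β. The groups did not overlap in either genotype, and the log2 fold changes were -0.57 ± 0.12 and -0.86 ± 0.12. *Wdr12*, a partner of *Pes1* and *Bop1* in the PeBoW complex, changed less, by -0.25 in WT and -0.33 in *Tet2*-KO, and *Pes1* itself was not called, at -0.09 and -0.08. *Bop1* was called at -0.33 and -0.66.

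*Nolc1*, a scaffold that escorts snoRNA particles to the nucleolus, was at 160, 140, 156 and 148 CPM in WT with vehicle and 97.2, 82.4, 72.9 and 103 with IL1β, and at 147, 152, 158 and 180 against 64.5, 99.7, 83.2 and 73.8 in *Tet2*-KO. Its groups did not overlap, with fold changes of -0.78 ± 0.12 and -0.99 ± 0.12. *Rrp9*, which binds the U3 snoRNA, was at 24.9, 25.0, 30.6 and 33.96 CPM in *Tet2*-KO with vehicle and 13.5, 18.0, 14.2 and 15.1 with IL1β, a fold change of -0.91 ± 0.13. In WT its groups overlapped, with 32.5, 18.0, 26.8 and 27.3 against 16.6, 16.4, 15.2 and 20.1. *Fbl* changed by -0.60 and -0.72, *Nop58* by -0.50 and -0.75, and *Wdr43* by -0.39 and -0.42.

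Abundant *Npm1* (ENSMUSG00000057113, chr11:33152287-33163206, -), a nucleolar chaperone and histone binder, stood apart. Its level was 3026, 2843, 2912 and 2937 CPM in WT with vehicle and 2966, 2823, 2436 and 2356 with IL1β, and 2808, 3018, 2936 and 3136 against 2621, 2325, 2734 and 2915 in *Tet2*-KO. The groups overlapped in both genotypes, and the fold changes of -0.15 ± 0.09 and -0.17 ± 0.09 were not called. Its family member *Npm3* was called, at -0.54 and -0.62.

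**Figure D3:**
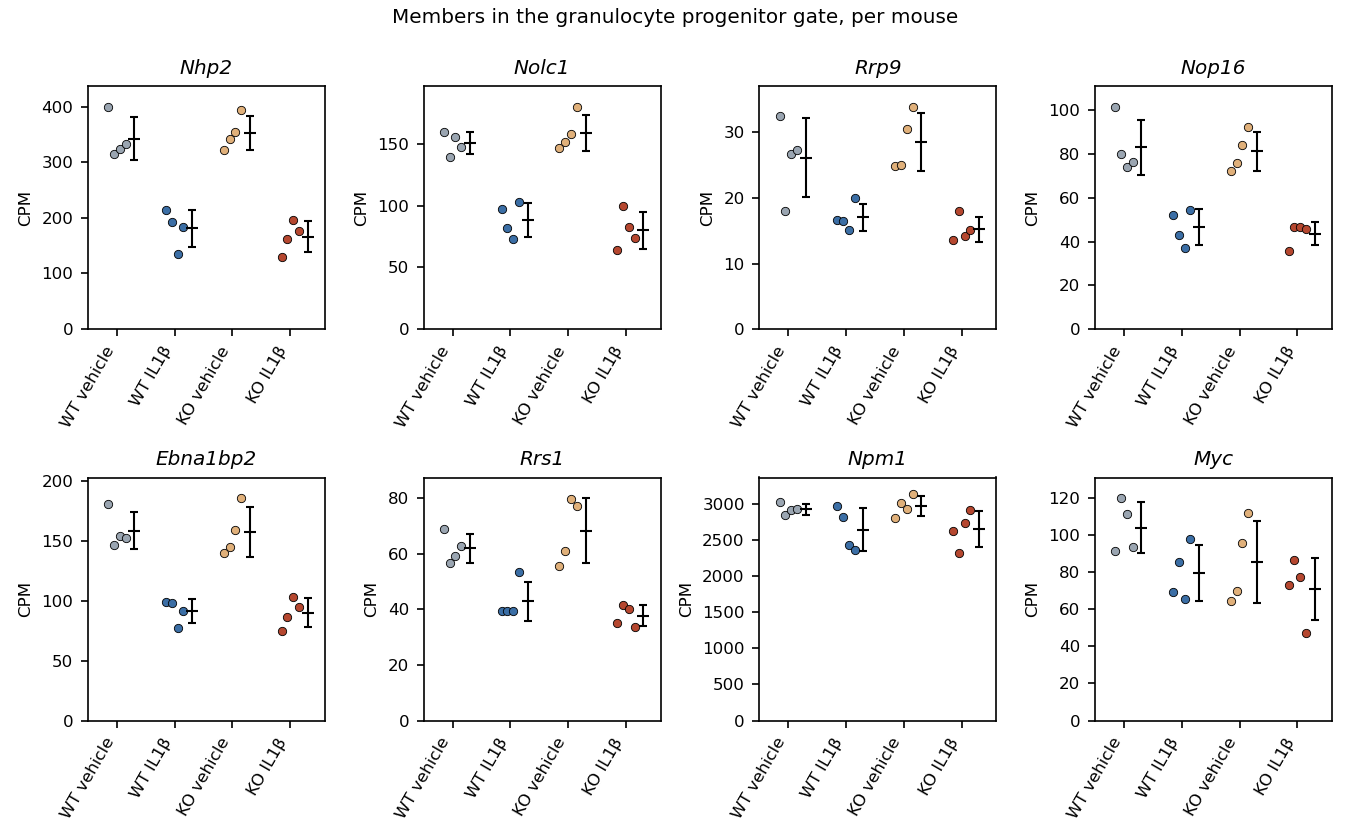
CPM per mouse of 8 of the genes in granulocyte progenitors, by group, with the mean and SD over 4 mice. *Nhp2*, *Nolc1*, *Nop16* and *Ebna1bp2* separate IL1β from vehicle mice in both genotypes, and *Npm1* and *Myc* overlap.

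The IMP gate, 1 step earlier, showed more calls in *Tet2*-KO than in WT. In WT 5 of 31 genes were called lower (4.86% of all genes), and in *Tet2*-KO 19 of 31 (11.9%), with medians of -0.40 and -0.67. The WT count was 2 without WT IL1β mouse 1 and 3 without WT vehicle mouse 1. Box H/ACA genes were called in 3 of 4 cases in WT and 4 of 4 in *Tet2*-KO, box C/D genes in 1 and 3 of 3 tested. *Nhp2* was at 441, 450, 286 and 292 CPM in WT with vehicle and 158, 259, 193 and 270 with IL1β, and at 284, 487, 338 and 348 against 159, 115, 174 and 102 in *Tet2*-KO. The fold change of -1.43 ± 0.20 in *Tet2*-KO was the largest of any of the 34 genes in any gate, and it was -0.81 ± 0.21 in WT. Whether the genotypes differ in these changes was tested separately, below.

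*Dkc1*, whose human mutations cause dyskeratosis congenita, was at 256, 248, 204 and 196 CPM in IMP of WT mice with vehicle and 74.2, 144, 116 and 111 with IL1β, and at 209, 232, 180 and 227 against 110, 139, 87.0 and 125 in *Tet2*-KO. The fold changes were -1.14 ± 0.22 and -0.79 ± 0.19, with no overlap in either genotype. *Ebna1bp2* changed by -1.10 ± 0.25 and -0.99 ± 0.22. *Nop56*, a core protein of box C/D particles, was at 332, 471, 319 and 322 CPM in *Tet2*-KO with vehicle and 89.6, 199, 203 and 151 with IL1β, a fold change of -1.04 ± 0.18 against -0.60 ± 0.19 in WT. *Bop1* changed by -1.12 ± 0.32 in *Tet2*-KO, from 64.4, 128, 47.9 and 66.2 to 19.9, 33.8, 23.2 and 35.6 CPM. *Rrs1* was not called in this gate, at -0.57 in WT and -0.69 in *Tet2*-KO.

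HSC-like cells gave fewer calls. In WT 3 of 32 were called lower (1.89% of all genes), namely *Nhp2*, *Fbl* and *Nop10*, and in *Tet2*-KO 8 of 32 (5.35%), with medians of -0.43 and -0.51. Leaving out 1 mouse gave 1 to 3 genes in WT, with 1 without WT vehicle mouse 3 or WT IL1β mouse 3, and 4 to 9 in *Tet2*-KO, with 4 without KO vehicle mouse 4 and 5 without KO IL1β mouse 2 or 4. In WT the call of *Nhp2* was lost in 3 of these 15 fits and that of *Nop10* in 4. *Nhp2* was at 246, 153, 249 and 180 CPM in WT with vehicle and 105, 66.5 and 123 in the 3 mice with IL1β, and at 235, 288, 186 and 332 against 41.3, 91.4, 157 and 152 in *Tet2*-KO. The fold changes were -1.001 ± 0.257 and -1.07 ± 0.21, and the groups did not overlap.

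The fibrillarin gene *Fbl* was at 344, 275, 290 and 260 CPM in HSC-like cells of WT mice with vehicle and 158, 133 and 136 with IL1β, a fold change of -0.98 ± 0.22. In *Tet2*-KO it was not called, at -0.44 ± 0.18, with 267, 166, 273 and 318 against 262, 190, 211 and 166 CPM. *Nop10* was called in both, at -0.72 ± 0.19 and -0.76 ± 0.17. *Mybbp1a* (chr11:72441355-72451768, +), a MYB-binding nucleolar protein that represses polymerase I, was called in *Tet2*-KO at -0.92 ± 0.22, with 151, 133, 174 and 148 CPM against 96.4, 80.2, 75.1 and 84.4. *Nop14*, of the small subunit processome, was called there at -0.96 ± 0.30, a call lost in 4 of 15 fits that left out 1 mouse, and was at 0.24 and not called in WT. *Rrs1* was low and scattered in this gate, between 22.2 and 91.7 CPM in single mice, and was not called in either genotype (-0.42 ± 0.45 and -0.29 ± 0.34).

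In MPP, 1 of 32 genes was called lower in WT (2.45% of all genes), *Nop10*, and 5 of 32 in *Tet2*-KO (5.18%), with medians of -0.27 and -0.28, so that the WT count is near the background. *Myc* was called higher in *Tet2*-KO, 1 of 32 genes, where 3.82% of all genes were called higher. *Nop10* was at 756, 812 and 630 CPM in the 3 WT mice with vehicle and 513, 490, 396 and 625 with IL1β, and at 662, 887, 524 and 687 against 400, 448, 422 and 543 in *Tet2*-KO. Its fold changes were -0.55 ± 0.16 and -0.57 ± 0.15, and in WT the call was lost in 4 of 15 fits, without WT vehicle mouse 1 or 3 or WT IL1β mouse 2 or 3. Leaving out 1 mouse gave 0 to 2 genes in WT and 5 to 8 in *Tet2*-KO, with 8 without KO vehicle mouse 1. In *Tet2*-KO, *Gar1* went from 155, 165, 127 and 160 to 83.7, 88.2, 62.5 and 85.2 CPM (-0.88 ± 0.22), *Nhp2* from 323, 375, 270 and 334 to 55.8, 174, 182 and 248 (-0.85 ± 0.19) and *Mybbp1a* from 196, 274, 147 and 231 to 93.0, 125, 146 and 106 (-0.78 ± 0.19). *Gar1*, *Nhp2* and *Mybbp1a* were not called in WT. *Rrs1*, at -0.87 ± 0.34 in WT and -0.80 ± 0.29 in *Tet2*-KO, did not pass the adjusted threshold.

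Summing the HSC-like, MPP and IMP cells of each mouse, which was decided after seeing the data, gave deeper counts. The mix of gates in these sums differed between groups. In *Tet2*-KO, HSC-like cells numbered 332 with vehicle and 367 with IL1β, MPP 260 and 203, and IMP 326 and 216. In WT these were 296 and 214, 197 and 156, and 216 and 171. In WT with vehicle the score was 6.54 in HSC-like cells and 7.02 in IMP. What part the mix has in the counts was not tested. In the sums, 9 of 34 genes were called lower in WT (5.31% of all 8562 genes) and 23 of 34 in *Tet2*-KO (11.9%), with medians of -0.37 and -0.58. *Myc* was the 1 gene called higher, in *Tet2*-KO, where 9.9% of all genes were.

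Few of the 34 genes were called in MEP. There 1 of 34 was called lower in WT (2.15% of all genes), *Gar1*, and none in *Tet2*-KO (2.6%), where DESeq2 called 0. At an unadjusted p under 0.05, edgeR gave 11 genes in *Tet2*-KO, against 1041 of all 5348. Medians were -0.02 in WT and -0.31 in *Tet2*-KO, against 0.03 over all genes in both. In *Tet2*-KO, with 3 mice in each group, 29 of 34 genes were lower, against 2558 of all 5348. Leaving out 1 mouse gave 0 to 3 genes lower in *Tet2*-KO, with 3 without WT vehicle mouse 1, 2 without WT IL1β mouse 1, and 1 without KO vehicle mouse 1 or WT vehicle mouse 3. In WT it gave 0 or 1 lower, and 1 higher without WT vehicle mouse 1. *Gar1* was at 205, 180 and 151 CPM in WT with vehicle and 75.3, 172, 97.3 and 93.7 with IL1β, so that the groups overlapped, and the call was lost in 9 of 13 fits that left out 1 mouse. In *Tet2*-KO it was at 198, 208 and 205 against 129, 121 and 130, a fold change of -0.67 ± 0.22 that was not called.

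In CFU-E 7 of 34 genes were called lower in WT (10.6% of all genes) and 8 in *Tet2*-KO (10.4%), and 3 were called higher in *Tet2*-KO (6.7%). Medians were -0.10 and -0.08. Leaving out 1 mouse changed the number called lower in *Tet2*-KO, as it changed the share of all genes called in either direction. The number was 3 without KO vehicle mouse 4 (9.06% of all genes). It was 4 without KO vehicle mouse 3 (9.06%) or KO IL1β mouse 2 (10.8%), and 5 without KO IL1β mouse 1 (15.1%). It was 9 without KO IL1β mouse 4 (15%), KO vehicle mouse 1 (20.9%) or KO vehicle mouse 2 (17.1%). Scaling to total counts in place of TMM factors turned both medians to 0.04 and gave 4 lower and 6 higher genes in WT and 3 lower and 6 higher in *Tet2*-KO, where 6.4% and 6.24% of all genes were called lower and 18.5% and 16.6% higher, so the direction of the group as a whole in CFU-E rests on the scaling. The median of all genes moved by 0.14 in WT and 0.13 in *Tet2*-KO between these scalings.

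Box H/ACA genes were again among those called lower in CFU-E. *Gar1*, which completes the mature particle, was at 207, 205, 178 and 187 CPM in WT with vehicle and 138, 133, 134 and 130 with IL1β, and at 155, 164, 224 and 224 against 129, 148, 140 and 150 in *Tet2*-KO. *Nhp2* was at 494, 460, 391 and 447 against 339, 316, 312 and 315 in WT, and at 450, 437, 541 and 537 against 297, 320, 383 and 366 in *Tet2*-KO. The groups did not overlap for either gene, and the fold changes were -0.53 ± 0.10 and -0.44 ± 0.10 for *Gar1* and -0.48 ± 0.09 and -0.52 ± 0.09 for *Nhp2*. *Rrs1* was called lower in *Tet2*-KO, at -0.42 ± 0.13, where its groups overlapped and the call was lost in 5 of 16 fits that left out 1 mouse, and was at -0.35 ± 0.14 and not called in WT.

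The 3 genes called higher in *Tet2*-KO CFU-E were *Myc*, *Rrp12* and *Polr1b*, the second largest subunit of polymerase I. *Polr1b* went from 55.8, 44.1, 47.5 and 45.3 to 59.1, 63.1, 62.6 and 57.0 CPM (0.32 ± 0.10), and *Rrp12*, a HEAT-repeat export factor, from 35.4, 41.4, 34.6 and 33.9 to 44.0, 47.4, 44.9 and 43.9 (0.36 ± 0.12). Neither gene had overlapping groups. Leaving out 1 mouse lost the call of *Rrp12* in 9 of 16 fits and that of *Polr1b* in 4.

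*Myc* (ENSMUSG00000022346, chr15:61985391-61990374, +) was called higher in a pair of gates and lower in none. In MPP of *Tet2*-KO mice it rose from 124, 119, 153 and 143 to 251, 218, 291 and 280 CPM, a log2 fold change of 0.91 ± 0.19, and the 4 mice with IL1β were above all others of the gate. In WT it was at 112, 166 and 187 with vehicle and 110, 119, 181 and 196 with IL1β (-0.10 ± 0.21, not called). In CFU-E of *Tet2*-KO mice it rose from 77.3, 88.1, 105 and 101 to 123, 130, 134 and 136 CPM (0.49 ± 0.11), and in WT it was at 87.5, 118, 110 and 107 against 91.1, 129, 120 and 106 (0.11, not called). In granulocyte progenitors it was not called, at -0.38 ± 0.21 in WT and -0.27 ± 0.20 in *Tet2*-KO, with 91.5, 120, 111 and 93.3 against 69.3, 85.5, 65.4 and 98.0 CPM in WT. In HSC-like cells, IMP and MEP the fold changes were -0.33, 0.10 and 0.23 in WT and 0.23, 0.40 and 0.49 in *Tet2*-KO, none of them called.

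**Figure D4:**
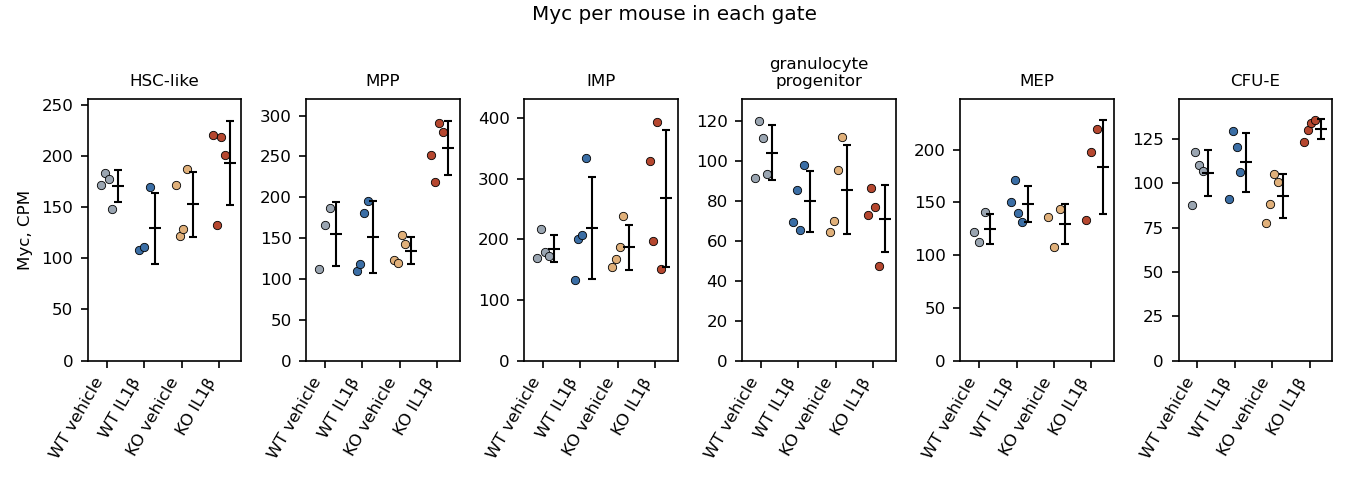
*Myc* in CPM for each mouse in the 6 gates, by group, with the mean and SD over mice. In MPP the *Tet2*-KO mice with IL1β lie from 218 to 291 CPM, above the other groups, and in granulocyte progenitors the 4 groups overlap.

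Summed over the 6 gates, box H/ACA genes were called lower in 14 of 24 pairs in WT and 16 of 24 in *Tet2*-KO, and box C/D genes in 7 and 9 of 22. Large subunit factors were called lower in 11 and 21 of 70 pairs, the chaperone and helicase group in 4 and 12 of 36, small subunit factors in 2 and 6 of 21 and the polymerase I group in 1 and 4 of 24. Shares of all genes called lower in a gate, given above, reached 16.8% in WT and 20.8% in *Tet2*-KO, and no difference between role groups was tested. *Nhp2* was called in HSC-like cells, IMP, granulocyte progenitors and CFU-E in WT, and in MPP as well in *Tet2*-KO. *Nop10* was called in HSC-like cells, MPP, IMP and granulocyte progenitors in both genotypes, and in CFU-E in WT. *Polr1a*, the largest subunit of RNA polymerase I, ranged from -0.15 to 0.53 in WT and from -0.45 to 0.45 in *Tet2*-KO without a call. Counts are from 3′ ends and are not corrected for gene length, so levels of different genes are not compared here.

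No gene of the 34 was called between genotypes at an adjusted p under 0.05. Comparing *Tet2*-KO with WT under vehicle, edgeR called 0 of 197 pairs, with 1 at an unadjusted p under 0.05, and DESeq2 called 0. Background shares of all genes called were 0% in HSC-like cells, MPP and MEP, 0.0444% in IMP, 0.126% in granulocyte progenitors and 0.0299% in CFU-E. Under IL1β, edgeR and DESeq2 called 0 of 197. The background was 0.065% in HSC-like cells, 0.0528% in MPP, 0% in IMP and MEP, 0.289% in granulocyte progenitors and 0.0299% in CFU-E. At an unadjusted p under 0.05, edgeR gave 17 pairs. They included 7 of 31 genes in IMP, where 424 of all 4507 genes passed, 2 of 32 in MPP (504 of 5679) and 2 of 34 in MEP (288 of 5348). The interaction of genotype and IL1β gave 0 calls by both tools, 8 pairs by edgeR at an unadjusted p under 0.05, and a background of 0% in all 6 gates. Levels under IL1β nevertheless lay lower in *Tet2*-KO than in WT for most of the genes in some gates. The score was lower by -0.38 in IMP, where the mice of the genotypes did not overlap. The difference was negative in 16 of 18 gates, though no test was made on the score. These gates hold cells of the same mice and are not separate observations. Against TMM factors, plain totals moved the median of all genes by -0.03 to -0.07 in the 6 tested gates. In CFU-E this shift was -0.038 and the score difference -0.032. In HSC-like cells the sign of the score difference turned with stricter gates and in cells low in cycling genes, as given in the last section. Of the single genes, 24 of 31 were lower in IMP and 32 of 34 in granulocyte progenitors, with medians of -0.25 and -0.13. In HSC-like cells 16 of 32 were lower, in MPP 18 of 32, in MEP 25 of 34 and in CFU-E 14 of 34. Of all genes tested, 2221 of 4507 were lower in IMP, 2763 of 5679 in MPP and 2785 of 5348 in MEP. Over all genes the median was 0.006 in IMP, 0.005 in granulocyte progenitors, 0.016 in HSC-like cells and 0.003 in CFU-E. In the sums of HSC-like, MPP and IMP cells, 27 of 34 genes were lower, with a median of -0.20 against -0.01 over all genes. The mix of gates in these sums differed between groups, as given above. There 10 of 34 had an unadjusted p under 0.05 by edgeR, as had 1055 of all 8562 genes. Calls by edgeR and DESeq2 were 0 (0.42% of all genes by edgeR), and hashtags called by ratio gave 3. The larger number of calls with IL1β in *Tet2*-KO is not shown by these tests to be a difference between genotypes.

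The closest to a call was *Myc* in MPP under IL1β. It was higher in *Tet2*-KO than in WT by 0.82 ± 0.20 on the log2 scale, with an adjusted p of 0.0785 by edgeR (unadjusted 0.000108), and its interaction was 1.01 ± 0.29 with an adjusted p of 0.95. Over 26 alternative settings the difference ranged from 0.32 to 0.96 and the adjusted p from 0.0256 to 0.922. It passed the threshold by edgeR in 2 of the 26, without the filter on low counts, at 0.0256, and with the pool number as a block, at 0.0311. That number is a label shared by the groups, whereas each pool held mice of 1 group only. With whole libraries as the replicate the difference was 0.45 ± 0.24 (adjusted p 0.756 by edgeR). Hashtags by ratio gave 0.44 (0.433), the stricter gate 0.395 (0.922) and cells low in cycling genes 0.32 (0.913). *Nop16* in IMP under IL1β was lower in *Tet2*-KO by -0.91 ± 0.31 (adjusted p 0.26 by edgeR), and *Bop1* in granulocyte progenitors by -0.37 ± 0.11 (adjusted p 0.226). *Nhp2* in IMP under IL1β was called lower in *Tet2*-KO with hashtags called by ratio, at -0.80 ± 0.19 (adjusted p 0.0212 by edgeR), and under no other setting run. Under vehicle, the lowest unadjusted p was that of *Utp20* in MPP, 0.0175, with a fold change of -0.75 ± 0.31 and an adjusted p of 0.996.

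Other genes of the pathway, listed apart from the 34, were called lower as well in granulocyte progenitors, but little in HSC-like cells and MPP. In granulocyte progenitors, where 16.8% of all genes were called lower in WT and 20.8% in *Tet2*-KO, 14 of 37 further small subunit factors were called lower in WT and 23 in *Tet2*-KO, and of 39 further large subunit factors 18 and 27, with medians of -0.20 and -0.44 and of -0.26 and -0.40. Of 13 further polymerase I genes 3 and 6 were called lower and 1 and 2 higher, where 15.3% and 21.4% of all genes were called higher. In HSC-like cells (1.89% and 5.35% of all genes), 0 of 30 small subunit factors were called by edgeR in either genotype, with 4 and 7 at an unadjusted p under 0.05, and of 33 large subunit factors 0 in WT, with 3 at an unadjusted p under 0.05, and 2 in *Tet2*-KO. In IMP (4.86% and 11.9%) the calls were 0 and 3 of 26 and 3 and 6 of 30. In MPP (2.45% and 5.18%) they were 0 and 0 of 33 and 1 and 0 of 33. The counts in HSC-like cells and MPP, and those of small subunit factors in IMP, are thus near or under the share of all genes. Without a call, 28 of 33 large subunit factors were lower in *Tet2*-KO MPP (2643 of all 5679 genes), with a median of -0.28. Sums of HSC-like, MPP and IMP cells (5.31% and 11.9%) gave 1 and 8 of 37 small and 5 and 12 of 39 large subunit factors lower. Medians there were -0.14 and -0.33 for the small and -0.18 and -0.40 for the large.

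Metabolic genes known to follow MYC were called lower in myeloid gates too. In granulocyte progenitors (16.8% and 20.8% of all genes) 6 of 10 were called lower in WT and 9 in *Tet2*-KO, with medians of -0.52 and -0.63. *Srm*, spermidine synthase, changed by -0.88 ± 0.16 and -1.23 ± 0.15, and *Pa2g4*, a growth-regulated nucleolar protein, by -0.62 ± 0.11 and -0.79 ± 0.11. In IMP (4.86% and 11.9%) 2 of 9 were called in WT and 8 in *Tet2*-KO, where *Nme1*, a nucleotide kinase, changed by -1.13 ± 0.14. Sums of the 3 immature gates (5.31% and 11.9%) gave 4 of 10 in WT and all 10 in *Tet2*-KO.

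MAX-binding antagonists and partners of MYC were called in both directions. In the sums of HSC-like, MPP and IMP cells, 1 of 10 was called higher and 1 lower in WT, and 4 were called higher in *Tet2*-KO. Of all 8562 genes, 328 were called higher and 455 lower there in WT, and 848 higher in *Tet2*-KO. Only called genes are named below, from single gates. *Mxd1*, an antagonist of MYC, was higher with IL1β in MPP of both genotypes, by 1.57 ± 0.46 and 1.73 ± 0.33, and in HSC-like cells of *Tet2*-KO by 2.02 ± 0.55. *Mxi1* was higher in granulocyte progenitors by 0.97 ± 0.12 and 0.86 ± 0.12, and *Mxd4* by 0.44 ± 0.12 and 0.77 ± 0.11. *Mxd3*, linked to proliferating cells, was lower there, by -0.87 ± 0.21 and -0.75 ± 0.19. *Mycn*, the MYC paralogue of stem cells, was lower in HSC-like cells by -2.62 ± 0.59 in WT and -1.35 ± 0.43 in *Tet2*-KO.

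Cytosolic ribosomal protein genes, the products that these factors assemble, had a median under 0 in every tested gate and both genotypes. Of 76 genes, 60 were called lower in WT granulocyte progenitors and 44 in *Tet2*-KO (16.8% and 20.8% of all genes), 39 and 46 in HSC-like cells (1.89% and 5.35%), and 59 and 52 in CFU-E (10.6% and 10.4%). In CFU-E, where the score of the 34 genes moved little, ribosomal protein genes went from 31.5% to 27.7% of UMIs in WT and from 31.6% to 28.7% in *Tet2*-KO. In granulocyte progenitors they went from 31.9% to 28.3% and from 31.39% to 30.01%.

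**Figure D5:**
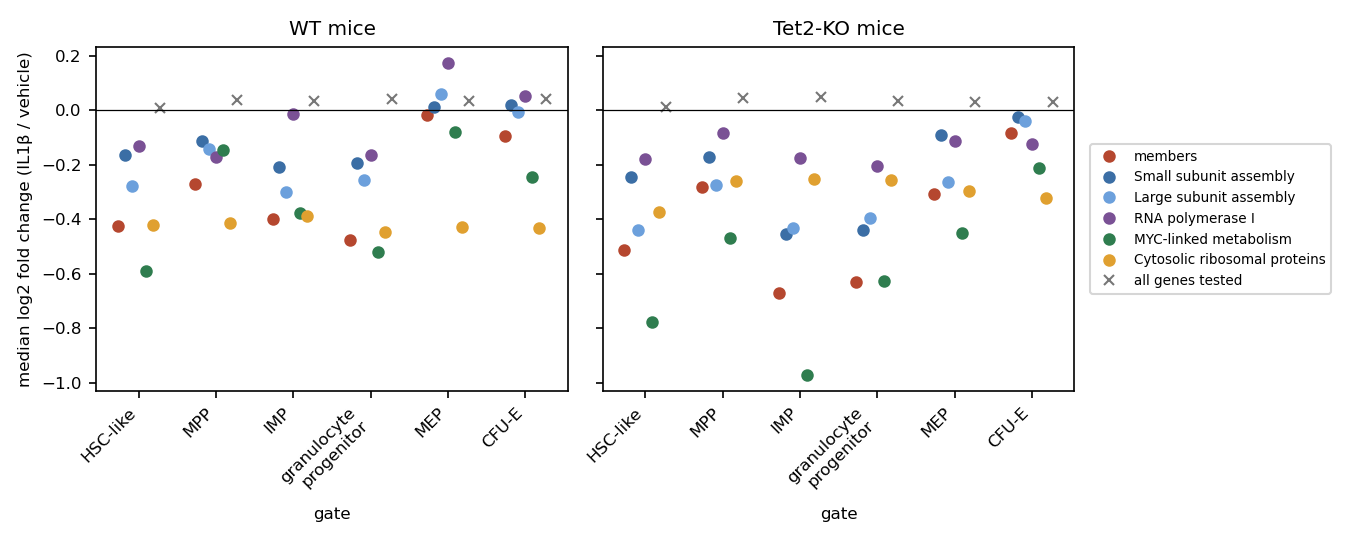
Median log2 fold change of IL1β against vehicle for the 34 genes (members), for 5 other gene lists and for all genes tested (crosses), in the 6 gates of WT and *Tet2*-KO mice. Ribosomal protein genes are under 0 in all gates, whereas the 34 genes lie further under 0 in HSC-like, MPP, IMP and granulocyte progenitor cells than in CFU-E. In MEP the median of the 34 genes is -0.02 in WT and -0.31 in *Tet2*-KO.

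Other measures moved with IL1β beside the 34 genes. Of 51 G2M genes in HSC-like cells, 5 were called higher in WT and 12 in *Tet2*-KO, against 1.41% and 3.67% of all genes, with medians of 0.52 and 0.68. Their share of UMIs went from 0.759% to 1.10% in WT and from 0.580% to 0.811% in *Tet2*-KO. Of 51 G2M genes in MPP, 0 were called higher in either genotype, with medians of 0.16 and -0.13. There 5 were called lower in *Tet2*-KO, against 5.18% of all genes. Of 47 in IMP, 0 and 9 were called higher, against 120 and 500 of all 4507 genes. In IMP 1 and 2 were called lower, against 219 and 537 of all genes, with medians of 0.18 and 0.29. S phase genes were called lower in 10 and 16 of 42 cases in granulocyte progenitors, against 16.8% and 20.8% of all genes. With cells restricted to those under the median share of S and G2M UMIs, granulocyte progenitors gave 24 genes lower in WT and 28 in *Tet2*-KO, against 14.9% and 20.2% of all genes, with medians of -0.53 and -0.63. On these fewer cells IMP gave 1 and 5 of 29 genes tested (1.31% and 3.98% of all genes), with medians of -0.39 and -0.50, and HSC-like cells 1 and 1 of 22 (2.45% and 2.18%), with medians of -0.67 and -0.45. The share of UMIs from the 34 genes went from 0.840% to 0.741% in WT granulocyte progenitors and from 0.839% to 0.666% in *Tet2*-KO.

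Markers of the gates moved too. In HSC-like cells *Mycn* was called lower in both genotypes, as given above, whereas *Gcnt2*, *Meis1*, *Ly6a* and *Esam* were not called. In granulocyte progenitors, *Kit*, a receptor of immature cells, was higher with IL1β by 0.35 and 0.53, *Ctsg* was lower by -0.85 and -0.50 and *Prtn3* by -0.53 in WT, all called, whereas *Cebpe*, *Fcnb*, *Ltf*, *Camp* and *Ngp* of later granulocytes were not. The median of UMIs per cell was taken in each mouse, and its mean ± SD over 4 mice was 7188 ± 1776 with vehicle and 6805 ± 868 with IL1β in WT, and 8126 ± 1633 and 9184 ± 971 in *Tet2*-KO. Over the pooled cells of a group the medians were 7734, 6880, 7696 and 8927, in the same order. In MPP, where *Myc* was called higher in *Tet2*-KO, *Cd48* was called lower by -0.87 in WT and -0.64 in *Tet2*-KO, and *Sox4* and *Satb1* were called higher in *Tet2*-KO by 0.74 and 0.58. In CFU-E, *Blvrb* was called lower by -0.90 and -0.76, *Aqp1* lower by -0.41 in WT, and *Tfrc*, the transferrin receptor, higher by 0.89 and 0.63. *Apoe* was called lower by -0.75 in MEP of WT mice and *Calr* by -0.32 in IMP of *Tet2*-KO mice. What part these shifts have in the levels of the 34 genes was not tested. Under total counts in place of TMM factors, which moved the median of all genes by 0.18 in WT and 0.14 in *Tet2*-KO, 17 and 23 of the 34 genes were called lower in granulocyte progenitors, against 9.74% and 14.1% of all genes.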

How the data were processed

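The authors deposited counts of UMIs per gene and barcode from Cell Ranger (version 3.1.0 in the file headers) on GRCm38, without normalization, together with counts of hashtag reads. Kept barcodes had 750 or more detected genes and no more than 10% of UMIs from mitochondrial genes. Hashtags were classified with HTODemux of Seurat 5.3.0, and double-positive cells were removed. By *Xist* and Y-linked counts, WT vehicle mouse 1, WT IL1β mouse 4, KO vehicle mice 1 and 2 and KO IL1β mice 3 and 4 were female. The rest were male, of which WT IL1β mouse 3 carried *Xist* at 278 CPM beside 173 CPM of Y-linked genes. WT vehicle mouse 2 carried 75.0 beside 127 CPM. Both shared a pool with a female, WT IL1β mouse 4 and WT vehicle mouse 1. These carried *Xist* at 2451 and 1500 CPM and Y-linked genes at 10.1 and 10.3 CPM. Whether cells of these pools were assigned to the wrong mouse was not tested. In every other pool both mice were of the same sex, so these counts cannot show it there. Gating went in a fixed order by UMIs of markers, at least 1 for sparse markers and at least 3 for abundant ones, with low defined as under 2 or 5 per 10000 UMIs. These limits were set after the distribution of marker UMIs had been seen.

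UMIs were summed per mouse and gate for mice with at least 10 cells, and the mouse was the replicate (4 per group). Counts went into a quasi-likelihood fit by edgeR 4.0.16 (R 4.3.3, filterByExpr, TMM factors, robust, all 4 groups in 1 fit), with Benjamini-Hochberg adjustment over all genes tested in a gate and calls at 0.05. CPM values of single genes are over TMM-adjusted totals, those of the score over plain totals, with a pseudocount of 1. It was tested on simulated data. Python 3.11.15, pandas 2.3.3 and DESeq2 1.42.0 were also used. Positions are from GENCODE on GRCm38.

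The 34 genes and the other gene lists were chosen with earlier results of these data known. Genes given with values are *Rrs1*, *Myc*, in each role group the gene with the highest mean CPM in MPP (*Myc*, *Nop58*, *Nop10*, *Wdr43*, *Wdr12* and *Npm1*, not corrected for length), and, for either direction of each gate and genotype, at most 3 called genes ranked by fold change. Others were named after their values were seen. Alternatives covered the tool, filter, scaling, hashtag calls, gates, cycling cells, blocks, the use of whole libraries, sex as a covariate and leaving out mice. *Riok2* and *Polr1f* had no match among the symbols.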

Additional observations from a re-analysis of the deposited data

Results flagged for a closer look

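In 7 of 157 groups of 4 mice, 1 mouse lay far from the other 3 (by Dixon's criterion at the 95% level, which chance meets in about 1 in 20 groups). In HSC-like cells KO IL1β mouse 1 had no UMIs of *Nop2*, *Rrp9* and *Polr1b*. The score of the 34 genes there was 5.85 in this mouse, against 6.22 to 6.29 in the others. In IMP it was 7.19 in WT vehicle mouse 1, against 6.94 to 6.98, and in granulocyte progenitors 6.62 in WT vehicle mouse 2, the mouse with the fewest cells, against 6.84 to 6.86. *Nop56* in IMP was at 471 CPM in KO vehicle mouse 2, against 319 to 332. *Rrs1* in granulocyte progenitors was at 53.5 CPM in WT IL1β mouse 4, against 39.3 to 39.4, and *Nop16* there at 35.6 CPM in KO IL1β mouse 1, against 45.8 to 46.7. *Nhp2* in CFU-E was at 339 CPM in WT IL1β mouse 1, against 312 to 316.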

How the results depend on the processing

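Numbers of called pairs of a gene and a gate, or of distinct genes, were within 1.5 times the reported ones in 53 of 57 comparisons with another setting. Most of these set 0 calls between genotypes against 0 and do not bear on the calls with IL1β. Hashtags called by ratio gave 49 pairs with IL1β in WT in place of 39, and 93 in *Tet2*-KO in place of 72. Of the fold changes of named genes, 304 of 362 stayed on their side of the threshold, with 58 losing the call and none turning. With cells low in cycling genes, 44 pairs were called with IL1β in *Tet2*-KO in place of 72, on fewer cells. *Tet2*-KO against WT under IL1β gave 1 pair without the filter on low counts, 1 with pools as a replicate block and 1 with hashtags called by ratio. Leaving out 1 mouse gave 31 to 43 pairs in WT and 57 to 78 in *Tet2*-KO with IL1β and 0 for the genotype comparisons. In HSC-like cells the score difference with IL1β was -1.13 in WT in cells low in cycling genes and -0.28 in *Tet2*-KO on the log2 sum of UMIs, and between genotypes it was 0.28 (vehicle) and 0.12 (IL1β) with stricter gates, -0.38 (IL1β) with hashtags by ratio and 0.66 (IL1β) in cells low in cycling genes. In MPP it was -0.018 in WT and -0.12 in *Tet2*-KO on the log2 sum. In IMP it was -0.54 in WT in cells low in cycling genes, and -0.20 in WT and -0.43 in *Tet2*-KO on the log2 sum. In WT granulocyte progenitors it was -0.43 over TMM-adjusted totals and -0.38 without the mice with the fewest cells. In MEP it was 0.14 in *Tet2*-KO with stricter gates, -0.32 in cells low in cycling genes, and -0.12 between genotypes under vehicle with stricter gates. In CFU-E it was 0.089 in WT with hashtags by ratio, 0.10 with whole libraries and -0.11 over TMM-adjusted totals, and -0.087 in *Tet2*-KO over TMM-adjusted totals. The cause was not tested. Mouse numbers did not pair the samples (median correlations of deviations near 0, 5 of 24 pairs over 0.1 in granulocyte progenitors), and a replicate block of mouse numbers gave 36 pairs in WT and 71 in *Tet2*-KO, with pools as a block 40 and 73. DESeq2 gave 40 and 62. Depth limits HSC-like cells, IMP, MEP and MPP, where sums per mouse used fall to 31853, 65288, 106424 and 107349 UMIs.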
